A study of Mus musculus with 4 samples.

Results

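Distal regions that were open enough to be called in the posterior forelimb buds of both Shh-/- embryos, but were missing from at least 1 of the 2 wild-type (WT) lists, are described here. The peaks of the 4 ATAC-seq libraries were merged wherever they overlapped by 1 bp or more, which gave 44692 regions. Of these, 27184 were distal, meaning that they did not touch a promoter window. Such a window covers the 2 kb before and the 1 kb after a TSS, the site where transcription of a gene starts. A total of 896 distal regions had a peak in both Shh-/- libraries and in at most 1 WT library, which is 3.30% of all distal regions and 65.6% of the 1365 distal regions called in both Shh-/- libraries. Among them, 165 had no peak in either WT library (0.607% of all distal regions and 12.1% of the 1365), 728 had a peak in WT replicate 1 alone and 3 in WT replicate 2 alone. The calls themselves chose these regions, so their presence in Shh-/- and absence from WT is a description and was not tested.

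ATAC-seq marks open chromatin by the places where the Tn5 transposase can insert sequencing adapters. The WT and the Shh-/- embryos were both on the Swiss Webster background, were collected at E10.5 with 35 somites, and the mutants carried the Shh tm1amc null allele. Each library was made from 5000 cells of the posterior parts of both forelimb buds of a single embryo and amplified by PCR for 18 cycles. With 2 embryos per genotype, and with peaks called in each library on its own, a difference between embryos and a difference between library preparations cannot be told apart within a genotype.

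Sonic hedgehog (SHH) is secreted by the posterior margin of the limb bud and patterns the anterior to posterior axis. In cells that receive it, GLI transcription factors are kept from being cleaved to repressors and activate target genes such as Ptch1 and Gli1. Without SHH, GLI3 is processed to its repressor form throughout the limb bud, and posterior mesenchyme loses much of its identity. Pax9 and the genes of the Alx and Irx families encode transcription factors, and several of these genes are expressed mainly in the anterior mesenchyme. The neighbourhood of these genes was therefore looked at first among several gene groups.

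The lists differed before any genotype was compared. WT replicate 1 held 39080 peaks, WT replicate 2 held 11973, Shh-/- replicate 1 held 5589 and Shh-/- replicate 2 held 18459. Shh-/- replicate 1 stood apart as the shortest list and as the one with the lowest median GC content of distal peaks, 48.5%, where Shh-/- replicate 2 had 52% and the WT libraries 53.5 and 54%. Member regions took up 43.8% of the distal peaks of Shh-/- replicate 1 and 13.7% of those of Shh-/- replicate 2. Promoter peaks were also counted for genes of several cell types. Of 16 genes of limb mesenchyme, including Prrx1, Tbx5 and Msx1, a promoter peak was called for 14 and 8 in the WT libraries and for 6 and 12 in the Shh-/- libraries, in the order of the replicates. Genes of ectoderm and apical ridge had promoter peaks for 8, 3, 0 and 5 of 16, endothelial and blood genes for 8, 3, 1 and 6 of 15, muscle progenitor genes for 4, 2, 0 and 4 of 8, and neural crest and neural genes for 7, 3, 0 and 4 of 10. In each of these groups the counts followed the length of the lists, with a tie at 4 for muscle progenitor genes. Not all gene groups did so. Target genes of hedgehog (HH) signaling had promoter peaks for 19, 14, 4 and 12 of 20, and proximal limb genes for 6, 4, 5 and 5 of 6. The share of all gene promoters with a peak was not taken, so these counts are no check of the tissue label. The number of members moved with single libraries and with list length. It was 899 without WT replicate 1, 168 without WT replicate 2, 5436 without Shh-/- replicate 1 and 1443 without Shh-/- replicate 2. With 1 WT library left the rule required its absence there. The number without any WT peak was 2665 without Shh-/- replicate 1 and 566 without Shh-/- replicate 2. With each list limited to as many of its best peaks as the shortest held, there were 328 members, 217 of them absent from both WT libraries. The files hold no read counts, so the depth behind a call is unknown, and chromatin without a called peak may still have been open.

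The sequences of 12 regions are shown because the results turn on them, each as the 200 bp around the summit of its better ranked Shh-/- peak, on the plus strand of mm10. The first 5 are the best ranked regions that had no WT peak, the next 2 are the best ranked with 1 WT peak, the next 3 lie within 100 kb of a TSS of an anterior limb gene, and the last 2 are the best ranked with a TAATTA match in each class, chosen after the values were seen. Regions are named by the nearest protein-coding TSS. Capitals mark exact matches to any of 21 short motifs, on either strand, or a match with 1 mismatch in the case of the GLI motif.
Bmpr1b, chr3:142124570-142124769, plus strand: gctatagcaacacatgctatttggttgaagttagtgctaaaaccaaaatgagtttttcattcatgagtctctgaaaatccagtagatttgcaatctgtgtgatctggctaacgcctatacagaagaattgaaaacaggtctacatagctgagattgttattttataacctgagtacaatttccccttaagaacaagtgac
Tbx2, chr11:85632675-85632874, plus strand: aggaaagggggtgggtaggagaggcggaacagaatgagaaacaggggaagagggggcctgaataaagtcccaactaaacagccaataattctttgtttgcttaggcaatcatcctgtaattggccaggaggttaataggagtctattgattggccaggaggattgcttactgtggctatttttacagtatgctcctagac
Irx3, chr8:91679597-91679796, plus strand: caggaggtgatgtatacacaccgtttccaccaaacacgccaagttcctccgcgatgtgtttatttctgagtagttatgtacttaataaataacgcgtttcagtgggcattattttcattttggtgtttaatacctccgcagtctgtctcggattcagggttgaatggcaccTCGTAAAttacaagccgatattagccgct
Hand2, chr8:57134177-57134376, plus strand: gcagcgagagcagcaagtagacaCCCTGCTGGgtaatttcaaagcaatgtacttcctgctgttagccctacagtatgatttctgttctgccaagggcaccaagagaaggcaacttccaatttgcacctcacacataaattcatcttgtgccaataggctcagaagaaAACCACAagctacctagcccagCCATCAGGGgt
Actrt2, chr4:154731454-154731653, plus strand: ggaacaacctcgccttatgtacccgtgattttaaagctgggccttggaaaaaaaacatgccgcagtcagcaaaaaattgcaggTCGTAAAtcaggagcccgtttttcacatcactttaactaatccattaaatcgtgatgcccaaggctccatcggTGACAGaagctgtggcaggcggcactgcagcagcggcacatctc
Zfy1, chrY:259088-259287, plus strand: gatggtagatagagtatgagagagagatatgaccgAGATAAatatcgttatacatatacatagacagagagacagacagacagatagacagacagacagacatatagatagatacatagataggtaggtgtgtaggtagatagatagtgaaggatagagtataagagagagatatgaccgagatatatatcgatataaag
Hdac9, chr12:34200182-34200381, plus strand: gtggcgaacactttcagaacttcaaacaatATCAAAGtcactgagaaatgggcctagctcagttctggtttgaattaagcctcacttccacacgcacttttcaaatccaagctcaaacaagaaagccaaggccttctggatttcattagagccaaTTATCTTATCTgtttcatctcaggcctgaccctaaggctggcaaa
Alx4, chr2:93625197-93625396, plus strand: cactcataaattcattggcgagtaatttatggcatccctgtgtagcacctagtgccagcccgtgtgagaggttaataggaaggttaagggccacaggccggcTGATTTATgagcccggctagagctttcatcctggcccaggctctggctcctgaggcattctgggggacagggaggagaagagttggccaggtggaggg
Pax9, chr12:56718622-56718821, plus strand: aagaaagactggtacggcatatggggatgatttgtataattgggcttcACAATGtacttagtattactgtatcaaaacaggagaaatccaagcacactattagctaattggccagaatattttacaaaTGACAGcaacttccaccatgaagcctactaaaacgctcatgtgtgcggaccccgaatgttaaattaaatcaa
Gli3, chr13:15544374-15544573, plus strand: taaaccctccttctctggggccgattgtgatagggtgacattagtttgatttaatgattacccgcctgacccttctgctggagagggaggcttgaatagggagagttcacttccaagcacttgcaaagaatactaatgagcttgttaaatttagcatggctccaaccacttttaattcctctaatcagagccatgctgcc
Pappa, chr4:65192893-65193092, plus strand: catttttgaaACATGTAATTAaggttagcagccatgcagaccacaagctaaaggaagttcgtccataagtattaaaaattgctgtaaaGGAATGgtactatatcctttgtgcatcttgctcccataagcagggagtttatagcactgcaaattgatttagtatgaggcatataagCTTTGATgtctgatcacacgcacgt
Slc39a10, chr1:46830416-46830615, plus strand: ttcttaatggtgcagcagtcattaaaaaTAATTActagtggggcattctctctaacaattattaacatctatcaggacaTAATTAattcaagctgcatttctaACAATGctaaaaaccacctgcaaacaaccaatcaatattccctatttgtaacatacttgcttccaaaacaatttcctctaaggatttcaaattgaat

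The motifs searched were TAATTA and AATNNNATT (homeodomain proteins, single and paired), CAATAAA (posterior HOX), TCGTAAA (HOX13), TGACAG (MEIS), TGATTNAT (PBX with HOX), ACATGT (IRX), CATCTG (an E-box bound by HAND proteins), TGTTTAC (forkhead), ACAATG (SOX), CATTCC (TEAD), ATCAAAG (TCF and LEF), TGANTCA (AP-1), AGATAA (for GATA factors), TGTGGTT (RUNX), AGGTGTGA (T-box), CCGGAAG (ETS), GGGCGG (SP and KLF), GCGCANGCG (NRF1), CCANNAGGG (a core of CTCF sites) and TGGGTGGTC (GLI). Matches can overlap, as the IRX and TAATTA letters do in the Pappa window. A match describes letters and not a bound site.

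The ranks of the member regions in their lists were moderate. A rank counts from the highest score of a list, tied scores share their mean rank, and ranks are also given as a percentage of the list. Since the lists differ in length and score, the same percentage is not the same strength in 2 lists. The 165 regions absent from both WT libraries had a median rank of 3752 in Shh-/- replicate 1 (67.1% of the way down the list) and 10115 in Shh-/- replicate 2 (54.8%). The 731 regions called in 1 WT library ranked higher, at medians of 2908.5 (52.0%) and 7536.5 (40.8%), and the 469 distal regions called in all 4 libraries higher again, at 2567 (45.9%) and 4440.5 (24.1%). All distal regions called in the list had a median rank of 3752 (67.1%) in Shh-/- replicate 1, the same as the 165 regions, and 13116 (71.1%) in Shh-/- replicate 2. None of the 165 regions was among the best 10% of the list of Shh-/- replicate 1 and 1 was in that of Shh-/- replicate 2, compared with 52 and 90 of the regions called in all 4 libraries. In WT replicate 1 the member regions called there had a median rank of 10496 (26.9%), with a range from 874.5 to 38500, and 313 of them lay in the best 25% of that list. A score of at least 50 in both Shh-/- lists was reached by 555 of the 896 regions and by 80 of the 165.

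**Figure D1:**
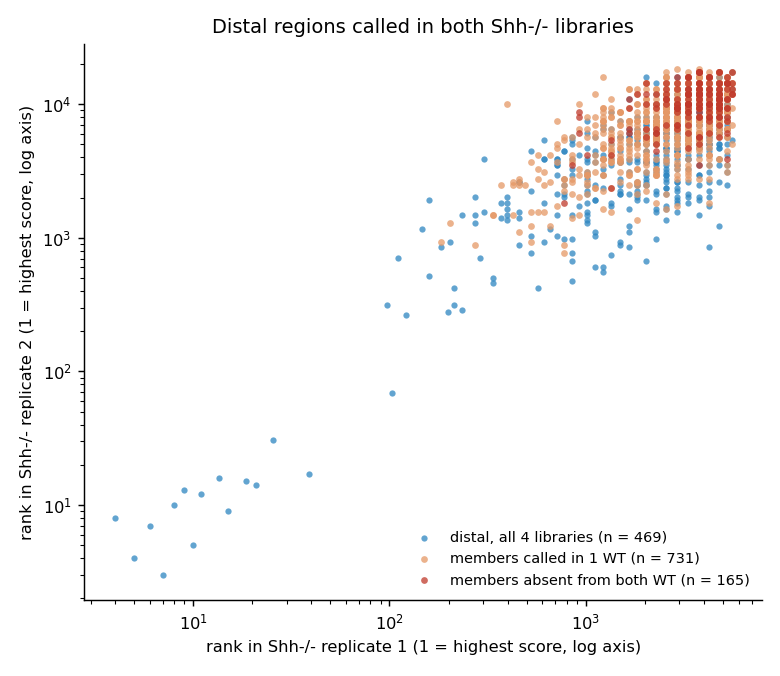
Rank of each distal region called in both Shh-/- libraries, in Shh-/- replicate 1 (x axis) and Shh-/- replicate 2 (y axis), on log axes where 1 is the highest score of the list. Each point is a region, coloured by its calls in WT, and the 165 regions absent from both WT libraries sit in the upper right corner, at a lowest rank of 774.5 in replicate 1 and 1820 in replicate 2.

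The best ranked region absent from both WT libraries lay in an intron of Bmpr1b, which encodes a type I BMP receptor active in digit condensations. It spanned chr3:142123887-142125399, 44.6 kb from the TSS, with a score of 212 and rank 774.5 in Shh-/- replicate 1 and a score of 373 and rank 1820 in Shh-/- replicate 2. A second member absent from both WT libraries lay in the same gene, at chr3:142099083-142099602 and 69.9 kb from the TSS, with ranks 926 and 8676.5. No WT peak came closer than 43.5 kb to the first or 69.3 kb to the second. These were 2 of the 4 distal regions within 100 kb of Bmpr1b, and another was called in all 4 libraries.

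The next 4 regions by rank lay from 63.5 to 199.7 kb from the nearest coding TSS. One was in an intron of Bcas3, 199.7 kb from the TSS of Tbx2, which encodes a T-box repressor expressed at the limb margins (chr11:85632519-85633116, ranks 849 and 3480). Another was 122.1 kb from Irx3 (chr8:91679468-91680120, ranks 1349 and 2362). A region 186.7 kb from Hand2, which encodes a bHLH factor required upstream of Shh in the posterior limb bud, had ranks 1011.5 and 4167 (chr8:57133940-57134586). The region nearest to Actrt2 (chr4:154730872-154731870, ranks 1349 and 4167) had a peak of WT replicate 1 only 0.489 kb away. The 15 best ranked of the class also held regions nearest to Ccdc54, Pappa, Slf1, BC052040, Gm26657, Gm5089, Stmn2, Nr4a2 and Lrba. Those nearest to Slf1, in Mctp1, and to Pappa, Gm5089 and Lrba were intronic.

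The gap from each of the 165 regions to the closest WT peak was measured along the chromosome. It does not show how near the WT signal within a region came to a call. The median gap was 46.0 kb to a peak of WT replicate 1 and 171.9 kb to one of WT replicate 2. A WT peak within 1 kb was found for 11 of the 165 regions in replicate 1 and for 1 in replicate 2. Of the 728 regions called in WT replicate 1 alone, 9 had a peak of WT replicate 2 within 1 kb. Peaks that lay close by without overlap were thus few.

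Among the regions called in 1 WT library, the best ranked was on the Y chromosome, nearest to Zfy1 at 538.2 kb (chrY:258980-259452), with ranks 184 and 936 in the Shh-/- lists and 480.5 in WT replicate 2. All 4 lists held peaks on this chromosome, from 9 to 12 each. The printed Zfy1 window holds runs of the letters gaca and gata, and whether its reads came from a single place was not tested. The next 14 were all called in WT replicate 1. An intronic region of Hdac9, which encodes a class II histone deacetylase, followed (chr12:34199663-34200889), with ranks 273 and 890 in the Shh-/- lists and 4802.5 in WT replicate 1. The region 47.2 kb from Foxc1, a forkhead gene of mesenchyme, lay in an intron of Gmds and had ranks 204.5, 1290 and, in WT replicate 1, 2834. The others were nearest to Olfr267, Wnt11 (in an intron of Uvrag), Cdh11, which encodes a cadherin of mesenchyme, Slc39a10, Lman1, Mecom, Gramd3, Fam83c, Cdca2, Zfp608, Tut7 and Igfbp4. Their ranks in WT replicate 1 ran from 2394.5 for Wnt11 to 8231 for Mecom, so they were not at the weak end of that list of 39080 peaks.

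Next, the anterior limb genes were examined. Within 100 kb of a TSS of any of 11 anterior limb genes, among them Pax9, Alx1, Alx4, Gli3 and genes of the Irx family, there were 54 distal regions, and 3 of them were members, a share of 5.56% (95% Wilson interval 1.91 to 15.1%). The background over all distal regions, 3.30%, lies inside this interval. Of the 54 regions, 4 were called in both Shh-/- libraries, as were 5.02% of all distal regions, and 2 met the reverse rule of a peak in both WT and at most 1 Shh-/- library.

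The 3 members lay near Pax9, Alx4 and Gli3. The Pax9 region, in an intron of Slc25a21 and 23.1 kb from the closest Pax9 TSS, was absent from both WT libraries (chr12:56718483-56718968). It ranked 3752 in Shh-/- replicate 1, with a score of 51, and 3480 in Shh-/- replicate 2, with a score of 230. The nearest WT peaks were 20.7 and 21.5 kb away. The Alx4 region, 17.3 kb from its TSS (chr2:93624779-93625483), ranked 3310.5 and 4440.5 in the Shh-/- lists and 7773 in WT replicate 1. The Gli3 region, in an intron 80.7 kb from the TSS of this main GLI repressor gene (chr13:15544227-15545097), was among the weakest members, at ranks 3752 and 17491.5 and 21623 in WT replicate 1. In the windows of the genes around them, Shh-/- replicate 2 had peaks in all 4 distal regions near Pax9, WT replicate 1 in 1 and Shh-/- replicate 1 in 1, while WT replicate 2 had none. Of the 15 distal regions near Alx4, the WT libraries called 9 and 3 and the Shh-/- libraries 1 and 7.

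Irx3 had no member within 100 kb. Of the 17 distal regions with Irx3 as the nearest coding gene, 4 were members, at 122.1 to 208.8 kb. Of these, the regions at 122.1 and 208.8 kb were absent from both WT libraries, and the region at 146.7 kb ranked 458.5 and 2771 in the Shh-/- lists but 13154 in WT replicate 1. The region at 208.8 kb, in an intron of Fto, was weak, at ranks 3752 and 14534.5. By the nearest coding TSS, without a limit on distance, 10 of 75 distal regions next to anterior limb genes were members (13.3%, interval 7.41 to 22.8%), with 1 each for Alx4, Gli3, Irx1, Irx2, Irx5 and Pax9 beside the 4 of Irx3.

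This larger share has to be set beside distance, since among all distal regions members were more frequent far from genes. They were 1.24% of distal regions under 20 kb from a coding TSS, 3.40% from 20 to 100 kb, 8.91% from 100 to 500 kb and 20.4% beyond that. By the nearest TSS, members were also 13 of 94 regions (13.8%) for genes induced by HH in the limb. Among them were 3 of 7 for Jag1, 3 of 10 for Rasgef1b and 2 of 6 for Hand2. Members were 10 of 88 (11.4%) for chondrogenic genes, with 4 of 6 for Trps1 and 3 of 23 for Sox9. They were 6.67% for limb mesenchyme genes, 6.54% for BMP pathway genes, 6.25% for proximal limb genes and 5.32% for HH pathway genes. The intervals of the last 3 contain 3.30%, and that of limb mesenchyme genes starts at 3.42%. No test was made between the groups.

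Within 100 kb the group with the highest share was that of limb mesenchyme genes, 13 of 150 regions (8.67%, interval 5.13 to 14.3%). Of these 150 regions, 15 were called in both Shh-/- libraries, compared with 5.02% of all distal regions. Members were 13 of the 15 (86.7%, interval 62.1 to 96.3%), and this interval contains the 65.6% of all distal regions called in both Shh-/- libraries. All 13 were called in 1 WT library, and they lay near Prrx1, Prrx2, Lmx1b, Lhx9, Fgf10, Shox2, Hoxa11, Hoxa13 and Sall4. Fgf10, which encodes the mesenchymal signal to the apical ridge, had 2 members among 3 distal regions, Shox2 had 2 among 7, Prrx1 2 among 5, Prrx2 2 among 31 and Lmx1b 2 among 46. HH targets had 6 of 100 (6.00%), chondrogenic genes 4 of 65 (6.15%), BMP pathway genes 7 of 125 (5.60%), proximal limb genes 2 of 37 (5.41%), and HH pathway genes 4 of 94 (4.26%). The 2 Bmpr1b regions and 1 region of Sox6 were among those absent from both WT libraries. For genes of other cell types, members were 0 of 107 for ectoderm and ridge, 1 of 111 for endothelium and blood, 1 of 35 for muscle progenitors and 0 of 46 for neural crest and neural genes. A count of 0 allows a share of up to 2.80% of 107 and 6.52% of 46 by the limit of 3 counts, and the Wilson intervals reach 3.47% and 7.71%, so that those of all 4 groups contain the background of 3.30%. Within 500 kb, anterior limb genes had 13 of 201 (6.47%), HH targets 22 of 313 (7.03%), limb mesenchyme genes 30 of 466 (6.44%) and chondrogenic genes 12 of 201 (5.97%). The shares were 3.78% for BMP pathway, 3.69% for HH pathway and 1.69% for proximal limb genes. Muscle progenitor genes had 7 of 146 (4.79%, interval 2.34 to 9.57%) and ectoderm and ridge genes 7 of 516 (1.36%). Endothelial and blood genes had 2.08% and neural crest and neural genes 0.952%.

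**Figure D2:**
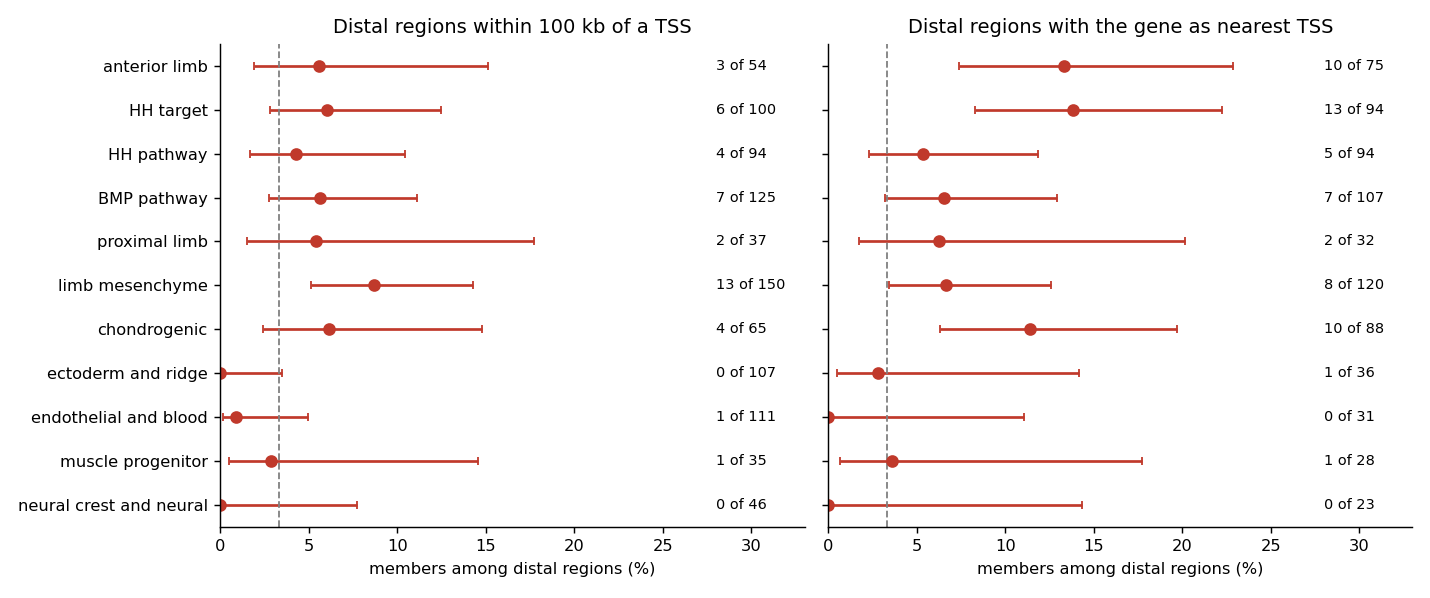
Share of distal regions that were members, in percent, for 11 gene groups, with 95% Wilson intervals, counting regions within 100 kb of a TSS (left) or by the nearest coding TSS (right). The dashed line is the 3.30% of all distal regions and the counts are at the right of each panel, such as 3 of 54 and 10 of 75 for the anterior limb genes.

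Some members lay close together along a chromosome. Zfp703, which encodes a zinc finger repressor, was the nearest coding gene of 8 members among 27 distal regions, in a run over chr8:26677510-26868736 and 108.8 to 299.5 kb from its TSS. Of the 8, 6 were called in WT replicate 1, at ranks from 5486.5 to 25903 there, and 2 were absent from both WT libraries. Zfp608 was nearest to 5 members among 15 distal regions and Auts2 to 5 among 21. Genes with 4 were, in the order of their best ranked member, Mecom (among 14 distal regions), Irx3 (17), Lmo4 (11) and Tcf7l2 (18). Next came Spsb4 (7), Dtwd2 (6) and Trps1 (6), and 4 more genes with 4 followed. Lmo4 encodes a LIM-only cofactor and Tcf7l2 an effector of WNT signaling. Members were 3.30% of all distal regions and more frequent far from genes. Whether these genes exceed others at such distances was not tested. Most genes with a member had only 1, namely 589 genes, and 91 had 2. With a gap of at most 50 kb between starts, 759 of the members had no other member next to them.

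**Figure D3:**
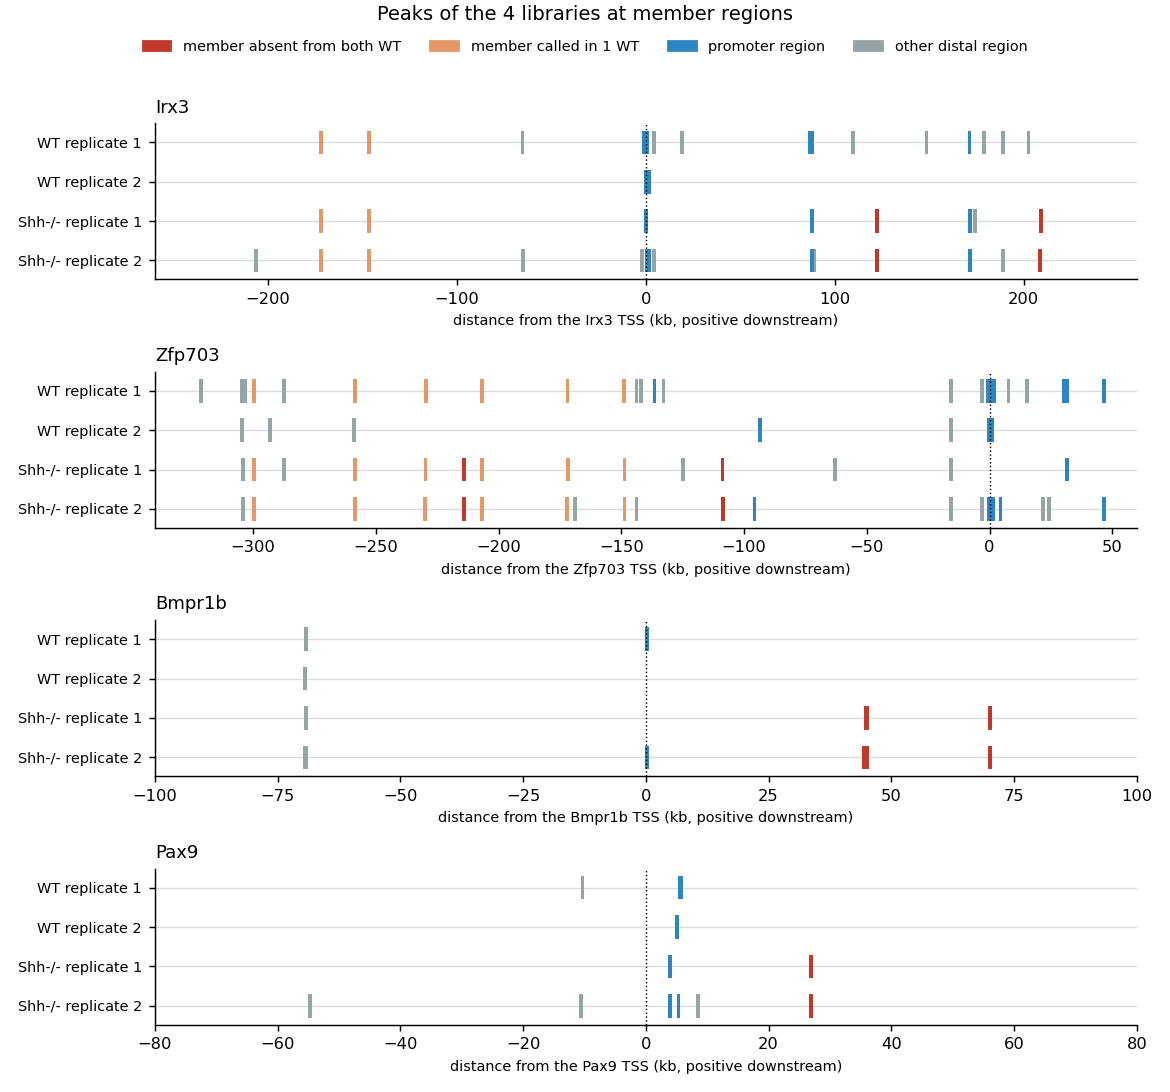
Peaks of the 4 libraries by distance from the outermost TSS of Irx3, Zfp703, Bmpr1b and Pax9 in kb, with each row a library, each bar a peak (short peaks are drawn wider to be visible) and the colour showing the kind of region. The red bars are members absent from both WT libraries, for example the pair of regions in Bmpr1b, so by the rule that chose them they can appear only in the Shh-/- rows.

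The members lay far from the TSSs of coding genes. Their median distance to a coding TSS was 77.5 kb, and that of the 165 regions absent from both WT libraries 143.4 kb, compared with 25.5 kb for distal regions called in all 4 libraries, 15.5 kb for the 1074 regions that met the reverse rule, which are 3.95% of all distal regions, and 21.3 kb for all distal regions. A distance of more than 100 kb was found for 44.0% of members (interval 40.8 to 47.2%), 60.6% of the 165 (53.0 to 67.7%) and 18.1% of the regions called in all 4 libraries (14.9 to 21.9%). Members touched exons in 6.25% of cases, compared with 21.1% of all distal regions, and 45.8% of members lay in introns. Another 48.0% were intergenic, compared with 31.8% of all distal regions and 50.1% of those called in all 4 libraries. Few members lay at the promoter limit. The member closest to a promoter window stopped 23 bp short of that of Mab21l2, regions overlapping the windows of Slc6a9 and Edrf1 by 20 bp were left out, and 14 of the 896 members lay within 500 bp of a window. At promoters the same calls were rare, since of 3391 promoter regions called in both Shh-/- libraries only 12 were absent from both WT libraries and 91.2% were called in both.

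GC content differed between the classes, with overlapping ranges. In the 200 bp around the best summit of a region, the median GC content was 41% in the 165 regions absent from both WT libraries (95% interval of the median 40 to 44%), 47% in those called in 1 WT library (46 to 47.5%) and 45.5% in all members. It was 54.5% in distal regions called in all 4 libraries (53.5 to 55.5%), 57.5% in the reverse class (56.5 to 58%) and 53% in all distal regions. Soft-masked repeats covered at least 50% of the window in 0.893% of the members and 4.41% of all distal regions.

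The share of the 1365 distal regions called in both Shh-/- libraries that were members fell with GC content, from 89.8% below 40% GC to 78.7% at 40 to 50%, 53.1% at 50 to 60% and 25.7% at 60% and over. Both WT libraries called fewer of the AT-rich regions. WT replicate 1 called 68.4% of them below 40% GC and 98.8% at 60% and over, and WT replicate 2 called 10.7% and 74.3%. Along GC content, the calls of WT replicate 2 and Shh-/- replicate 1 ran in opposite directions. Of the distal regions called in WT replicate 1 and Shh-/- replicate 2, which are of different genotype, WT replicate 2 also called 13.4% below 40% GC and 44.8% at 60% and over, whereas Shh-/- replicate 1 called 57.1% and 17.8%. All members have a call in Shh-/- replicate 1 and all but 3 lack one in WT replicate 2. How much of the low GC content of the members goes with these 2 libraries was not tested. Leaving out Shh-/- replicate 1 gave 5436 regions with a median GC content of 51%, against 57.5% in the distal regions called in all 3 libraries left. The difference between the genotypes in the median GC content of distal peaks was -3.5 percentage points (Shh-/- 50.2 ± 2.47, WT 53.8 ± 0.354, SD, n = 2 each), which could not pass a threshold in an exact permutation test over libraries (two-sided p = 0.333, the smallest value possible).

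**Figure D4:**
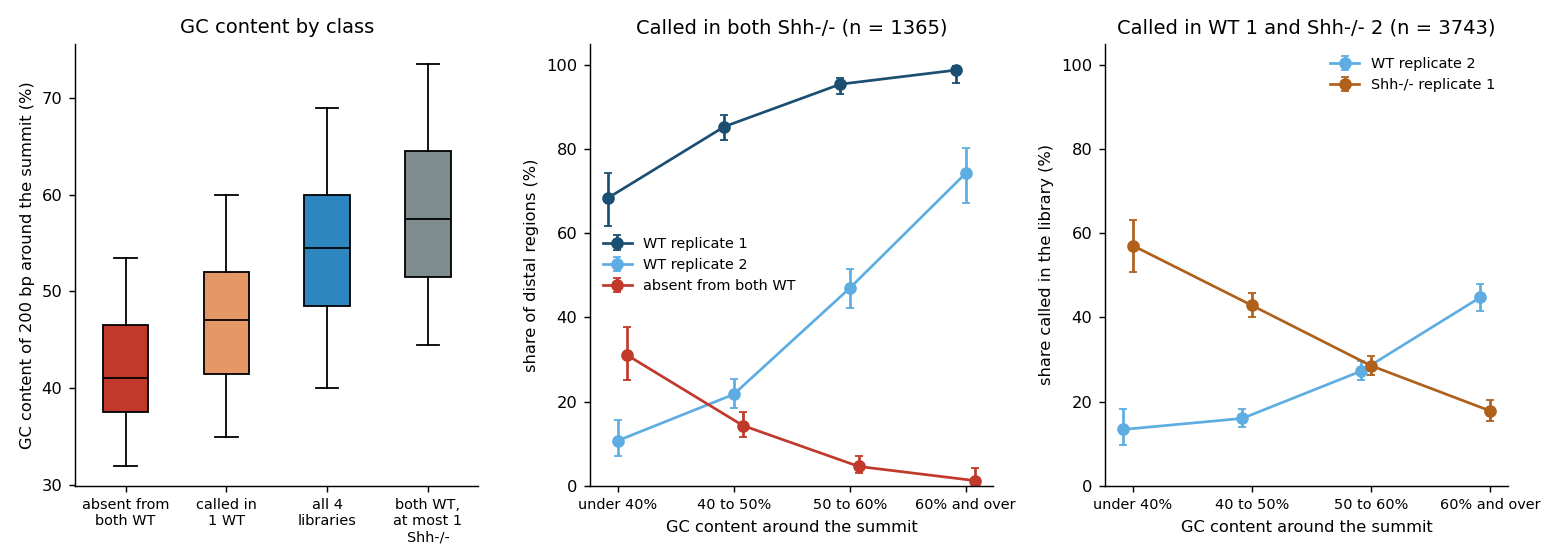
GC content of the 200 bp around the summit in percent by class (left, boxes are quartiles with the median and whiskers the 5th and 95th percentiles), and the share of distal regions called by a library or absent from both WT libraries by GC content, with 95% Wilson intervals, among regions called in both Shh-/- libraries (middle) and in WT replicate 1 and Shh-/- replicate 2 (right). WT replicate 2 rises with GC content in both panels while Shh-/- replicate 1 falls from 57.1% to 17.8%.

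Sequence letters differed along with GC content. The homeodomain motif TAATTA was found around the summit in 20.3% of members (interval 17.8 to 23.1%), namely 20.6% of the 165 regions and 20.2% of the 731. It was found in 11.1% of distal regions called in all 4 libraries, 4.66% of the reverse class and 5.66% of all distal regions. The PBX and HOX motif TGATTNAT was in 10.4% of members and 2.76% of all distal regions, and the posterior HOX motif CAATAAA in 8.15% and 2.71%. The SP and KLF motif GGGCGG, typical of GC-rich promoters, was in 1.21% of the 165 regions, 5.75% of the 731, 23.5% of regions called in all 4 libraries and 8.32% of all distal regions.

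These letters are AT-rich or GC-rich themselves, so the shares were also taken within 1 band of GC content. From 40 to 50% GC, TAATTA was in 20.9% of 435 members (interval 17.4 to 24.99%), 17.8% of 118 regions called in all 4 libraries (11.9 to 25.7%), 10.8% of 166 regions of the reverse class (6.97 to 16.5%) and 10.4% of 7318 distal regions (9.76 to 11.2%). In this band members and regions called in all 4 libraries had overlapping intervals. The PBX and HOX motif was in 9.43% of these members (7.02 to 12.5%), 7.63% of regions called in all 4 libraries (4.06 to 13.9%), 7.23% of the reverse class (4.18 to 12.2%) and 4.88% of all distal regions, and the first 3 intervals overlap. The posterior HOX motif was in 6.67% (4.68 to 9.41%), 1.69% (0.466 to 5.97%), 3.01% (1.29 to 6.86%) and 4.67% in the same order. Among the members of this band it was in 7.58% of the 356 called in 1 WT library (5.26 to 10.8%). Those absent from both WT libraries had it in only 2 of 79 (2.53%, 0.697 to 8.77%). The GLI motif was in 3.12% of members at any GC content, 6.42% of the reverse class, 6.00% of all distal regions and 5.33% of regions called in all 4 libraries. Within the band it was in 2.30% of members (1.25 to 4.18%), 4.22% of the reverse class (2.06 to 8.45%), 2.54% of regions called in all 4 libraries (0.868 to 7.21%) and 3.59% of all distal regions, a value inside the members' interval. In the band, GGGCGG was in 1.84% of members and 2.05% of all distal regions. TAATTA matches appear in capitals in the Pappa and Slc39a10 windows, and the MEIS letters TGACAG in the Pax9 window. At any GC content TGACAG was in 16.1% of members, 15.4% of regions called in all 4 libraries and 17.7% of all distal regions. The HOX13 letters TCGTAAA, marked in the Irx3 and Actrt2 windows, were in 1.23%, 1.07% and 0.475% in the same order. Without Shh-/- replicate 1, TAATTA was in 11.8% of the regions that met the rule and 7.51% of those called in all 3 libraries left, and without Shh-/- replicate 2 in 14.97% and 10.04%. The PBX and HOX motif was in 5.02% of the regions that met the rule without Shh-/- replicate 1 and the posterior HOX motif in 4.10%, compared with 3.32% and 2.63% of those called in all 3 libraries left. Without Shh-/- replicate 2 the shares of the regions that met the rule were 8.32% and 6.51%.

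**Figure D5:**
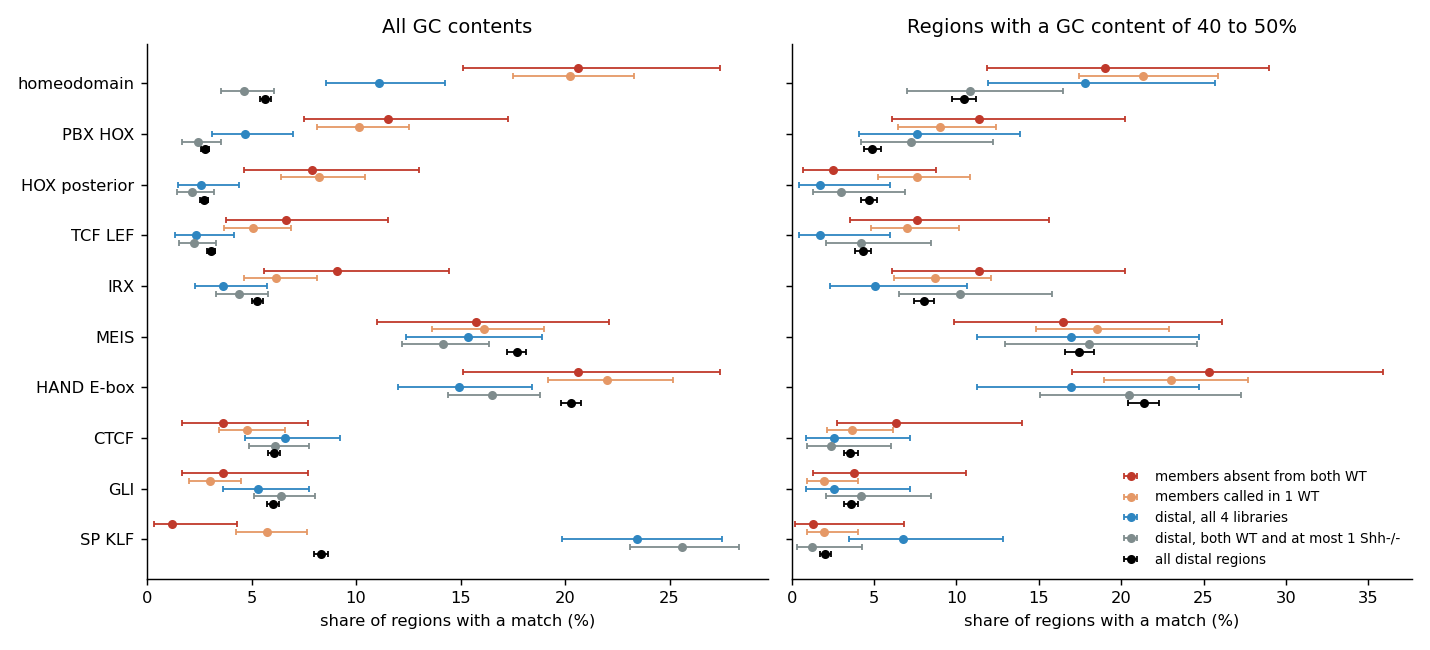
Share of distal regions with a match to each of 10 motifs in the 200 bp around the summit, in percent with 95% Wilson intervals, for all regions (left) and for those with a GC content of 40 to 50% (right), by class. For the homeodomain motif, members absent from both WT libraries lie at 20.6% (left) and 19.0% (right), and those called in 1 WT library at 20.2% and 21.3%. All distal regions lie at 5.66% and 10.4%. For SP and KLF the regions called in all 4 libraries drop from 23.5% in the left panel to 6.78% in the right.

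Enhancers with known activity were present among the members. RefSeq lists 958 mouse enhancers from reporter assays and other experiments, 183 of them with activity recorded in the limb. Of the members, 43 overlapped a listed enhancer (4.80%, interval 3.58 to 6.40%), compared with 6.40% of distal regions called in all 4 libraries (4.52 to 8.98%) and 1.17% of all distal regions. A limb enhancer was overlapped by 31 members (3.46%, 2.45 to 4.87%). The share for limb enhancers was 5.12% of distal regions called in all 4 libraries (3.46 to 7.501%), 0.931% of the reverse class (0.507 to 1.71%) and 0.519% of all distal regions. Counting only the summit of the best peak, which does not depend on the width of a region, left the 31 members and gave 0.511% for all distal regions. Of the 31, 30 were called in 1 WT library and 1 of the 165 (0.606%) was absent from both, beside 0.519% of all distal regions. This region, 434.7 kb from Tcf4, lay in the same limb enhancer as a member called in WT replicate 1 at rank 8707.5. The best ranked of the 31 was nearest to Itgb6 (chr2:60785841-60786848). Others were nearest to Fgf10 (chr13:118735788-118736272), Sox9 at 232.4 kb (chr11:113014348-113014864), Bmp7, Smad6 and Igf1. The Pax9 region overlapped an enhancer recorded as active in the medial nasal processes. The elements of this list were picked for testing by those who entered them and are no random sample of enhancers.

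Last, the neighbourhood of the anterior limb genes was compared between the libraries. The share of distal peaks within 100 kb of anterior limb genes was 0.177% and 0.211% in the WT libraries and 0.244% and 0.378% in the Shh-/- libraries, in the order of the replicates, from 40, 7, 5 and 25 peaks. The values of both Shh-/- libraries lay above those of both WT libraries, by 0.117 percentage points on average (exact permutation test, two-sided p = 0.333, the smallest value possible). When Shh-/- replicate 1 was left out, so that a call in Shh-/- replicate 2 and in at most 1 WT library sufficed, 21 of the 54 distal regions met the rule (38.9%) compared with 20.3% of all distal regions. Without Shh-/- replicate 2 it was 4 of 43 (9.30%) compared with 5.82%.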

How the data were processed

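ATAC-seq was run on 4 single-embryo libraries (2 WT, 2 Shh-/-), grouped by their titles. Per the submitters' processing notes the authors aligned reads with Bowtie2 2.2.5 to mm10 (GRCm38) and called peaks with MACS2 2.1.0. The authors deposited 1 peak list per library, not pooled, with a score for each peak (by the caller's format 10 times the highest −log10 q-value, a scale the files do not state). The score and the summit position were used, and columns for fold, p and q held 0.

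Peaks overlapping by 1 bp were merged and annotated with GENCODE M21 (basic). GC content and motifs came from 200 bp of RefSeq GRCm38.p6 around the best ranked summit of a region. Shares carry 95% Wilson intervals, and medians order-statistic intervals. Both cover counting error only, and regions are neither replicates nor independent. Libraries were compared by exact permutation tests, in which 2 against 2 cannot go below p = 0.333. Python 3 with numpy, pandas and scipy was used, and the functions were tested on simulated data. The members, gene lists and motifs were chosen with earlier results of these data known, and the RefSeq enhancers were added after the files were seen. Named regions are the 15 best ranked of each class by mean rank percentage in the Shh-/- lists, all members within 100 kb of anterior limb genes, and up to 10 genes nearest to 4 or more members. Values of some single genes of the lists are not reported here.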

Additional observations from a re-analysis of the deposited data

How the results depend on the processing

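The number of members was 896, and settings that kept all 4 lists whole gave 784 to 968. A score of at least 50, which shortens the lists, gave 711. Limiting each list to its 5589 highest scores (equal list size) gave 328 members, and leaving out 1 library gave 168 to 5436, with 168 without WT replicate 2 and 5436 without Shh-/- replicate 1. The number absent from both WT libraries was 165, and 150 to 240 under settings with all libraries. A like number does not mean the same regions. A score of at least 50 gave 160 absent regions, but only 80 of the 165 reached it in both Shh-/- lists. It was reached there by 555 of the 896 members, where this setting gave 711. Leaving out 1 library gave 168 to 2665, with 899 without WT replicate 1, 2665 without Shh-/- replicate 1 and 566 without Shh-/- replicate 2, since fewer calls are then required. The median GC content of members was 47% at equal list size and 41 to 51% with 1 library left out. The GC difference from regions called in all libraries, -9 percentage points, was -7.36 over whole regions and -8.5 to -6.5 with 1 library left out, and kept its sign under every setting. The share of regions near anterior limb genes that were members, 5.56%, was 40% at equal list size, where it was 2 of 5 regions, and 1.92 to 38.9% with 1 library left out. The share over all distal regions moved too, from 3.30% to 13.8% at equal list size, 0.655% without WT replicate 2 and 20.3% without Shh-/- replicate 1. The cause of these shifts beyond the smaller number of calls was not tested. The replicate numbers do not pair embryos, and the exact permutation test with the replicate block gave p = 0.5 for the GC difference of -3.5 percentage points and for the anterior share difference of 0.117, the smallest value that 2 pairs allow. With 1 library left out the GC difference ran from -5.25 to -1.75 and the anterior difference from 0.04999 to 0.184. No group had enough libraries for an outlier test, and depth limits every call, since the lists carry no read counts.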
